A study of Mus musculus with 12 samples.

Results

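The 7 sirtuin genes Sirt1 to Sirt7 and 3 further genes of nicotinamide adenine dinucleotide (NAD) metabolism, Nampt, Parp1 and Bst1, were followed in intestinal stem cells (ISCs) of young and old mice. They were chosen by name for their place in NAD biology. All 10 were found in the count table of 54232 genes, and all 10 passed the filter on low counts, which left 13368 genes for testing. Of the 12 libraries, all passed the filter on their own for Sirt1, Sirt2, Sirt5, Sirt6, Sirt7, Nampt and Parp1, against 11 for Sirt4, 9 for Sirt3 and 6 for Bst1, with libraries of all 4 groups in each case.

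RNA had been taken from sorted small intestinal ISCs, 1 mouse per library and 3 libraries per group, and sequenced from the 3′ end of polyadenylated transcripts. In SM6, the mice were wild type (WT) of strain C57/Bl6, aged 2 months (young) or 22 months (old), and the cells were taken by surface markers. In Lgr5-GFP, the mice carried Lgr5-EGFP-IRES-CreERT, as the labels spell it (Lgr5-EGFP-IRES-CreERT2 in the study's methods). A fluorescent protein and an inducible Cre are expressed in it from the locus of Lgr5, the receptor gene that marks ISCs. The ages of these mice were the same 2 and 22 months. The study's methods give all mice as female, and the labels describe the surface marker sort for the reporter mice as well, whereas one of its supplementary legends has them sorted by fluorescence. The mouse line thus differed between SM6 and Lgr5-GFP and the sort may have differed too, so their parts in any difference between SM6 and Lgr5-GFP cannot be told apart. Because each library came from its own mouse, the p-values below measure the spread between mice.

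Sirtuins are enzymes that remove acetyl and other acyl groups from lysines and consume NAD with each reaction. Sirt1, Sirt6 and Sirt7 act mainly in the nucleus, Sirt2 mainly in the cytosol, and Sirt3, Sirt4 and Sirt5 in mitochondria. Nampt is the rate-limiting enzyme of the pathway that rebuilds NAD from nicotinamide, Parp1 spends NAD on ADP-ribose chains at DNA breaks, and Bst1 (also called CD157) is a cell-surface enzyme that turns NAD into cyclic ADP-ribose and is known in the crypt from Paneth cells, the neighbours of ISCs.

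Between RefSeq and the table, 9 of the 10 genes had a promoter entry, with 11 start sites in all. The 250 bases before the start are printed for Nampt and Parp1 (RefSeq, GRCm38.p6), because the mean levels of these 2 genes had the same order over the 4 groups, as given further on. A shared order was not particular to them, as Bst1 and Sirt7 shared another. Capitals mark GGGCGG (GC box) and CACGTG (E-box), read on both strands, and none of the capital runs in the 2 windows overlap.
Nampt, chr12:32820085-32820334, plus strand: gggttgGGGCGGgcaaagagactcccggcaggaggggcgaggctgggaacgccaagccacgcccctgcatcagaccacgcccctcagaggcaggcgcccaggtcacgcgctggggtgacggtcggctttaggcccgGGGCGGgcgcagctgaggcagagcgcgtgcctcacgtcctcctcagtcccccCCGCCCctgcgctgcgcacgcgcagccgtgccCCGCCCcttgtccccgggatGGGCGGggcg
Parp1, chr1:180568641-180568890, plus strand: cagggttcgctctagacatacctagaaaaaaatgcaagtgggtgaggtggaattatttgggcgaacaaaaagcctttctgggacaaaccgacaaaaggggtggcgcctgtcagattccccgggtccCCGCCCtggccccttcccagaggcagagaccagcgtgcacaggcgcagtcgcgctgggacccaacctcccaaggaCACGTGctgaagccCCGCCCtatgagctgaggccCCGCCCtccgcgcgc
The window of Nampt held 5 GC boxes at a GC content of 75.6%, and that of Parp1 held 3 GC boxes and 1 E-box at 61.6%, against a median GC content of 52.4% over all 32851 windows of this length. GGGCGG was found in 8 of the 11 windows and in 32.7% of all windows, and CACGTG in 2 of the 11 and in 6.02% of all. CCAAT was found in 3 of the 11 windows, against 33.8% of all. TATAAA was found in 0 of the 11, against 12.4% of all. A match describes the letters only, and no binding was measured here.

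Library totals ran from 970472 to 3815425 counts. Levels are given as CPM, counts brought to a common library total, with totals scaled by edgeR's TMM factors, which balance libraries whose counts are dominated by a few genes. All 10 ISC markers were detected in every library, and their summed level was 12900 to 15970 CPM in SM6 young, 8100 to 9315 in SM6 old, 12650 to 14480 in Lgr5-GFP young and 10800 to 12480 in Lgr5-GFP old. The 8 goblet cell markers summed to 5749 to 9175 CPM in SM6 young against 17370 to 18310 in SM6 old. The 10 Paneth cell markers varied from 10700 CPM in SM6 young replicate 3 to 273600 in SM6 old replicate 3, with the second highest level, 245200, in Lgr5-GFP young replicate 1. Immune markers summed to at most 28.7 CPM, with 4 to 9 of 10 at 0 in each library, and stromal and endothelial markers to at most 8.68. In bulk libraries such as these, fewer cells of a type and less RNA per cell cannot be told apart.

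To ask whether these genes differed with age in ISCs, old was compared with young within each isolation and on average over both, with 1 model for all 12 libraries (edgeR quasi-likelihood test) and p-values adjusted over the 13368 genes by the Benjamini-Hochberg method. The threshold for a call was an adjusted p of 0.05. With edgeR, 0 of the 10 genes were called in either isolation or on average, where in SM6, in Lgr5-GFP and for the average 2.42%, 0.471% and 2.66% of all tested genes were called. At an unadjusted p under 0.05 the numbers of the 10 were 2 in SM6 (Sirt6 and Nampt), 1 in Lgr5-GFP (Sirt4) and 1 on average (Sirt6), against 13.1%, 9.79% and 12.8% of all tested genes. DESeq2 also called 0 of 10 in each of these comparisons, whereas limma voom called Sirt6 on average and none within an isolation. For SM6, Lgr5-GFP and the average, the median log2 fold change of the 10 was 0.08, -0.11 and -0.01, beside -0.01, -0.03 and -0.03 over all tested genes.

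**Figure D1:**
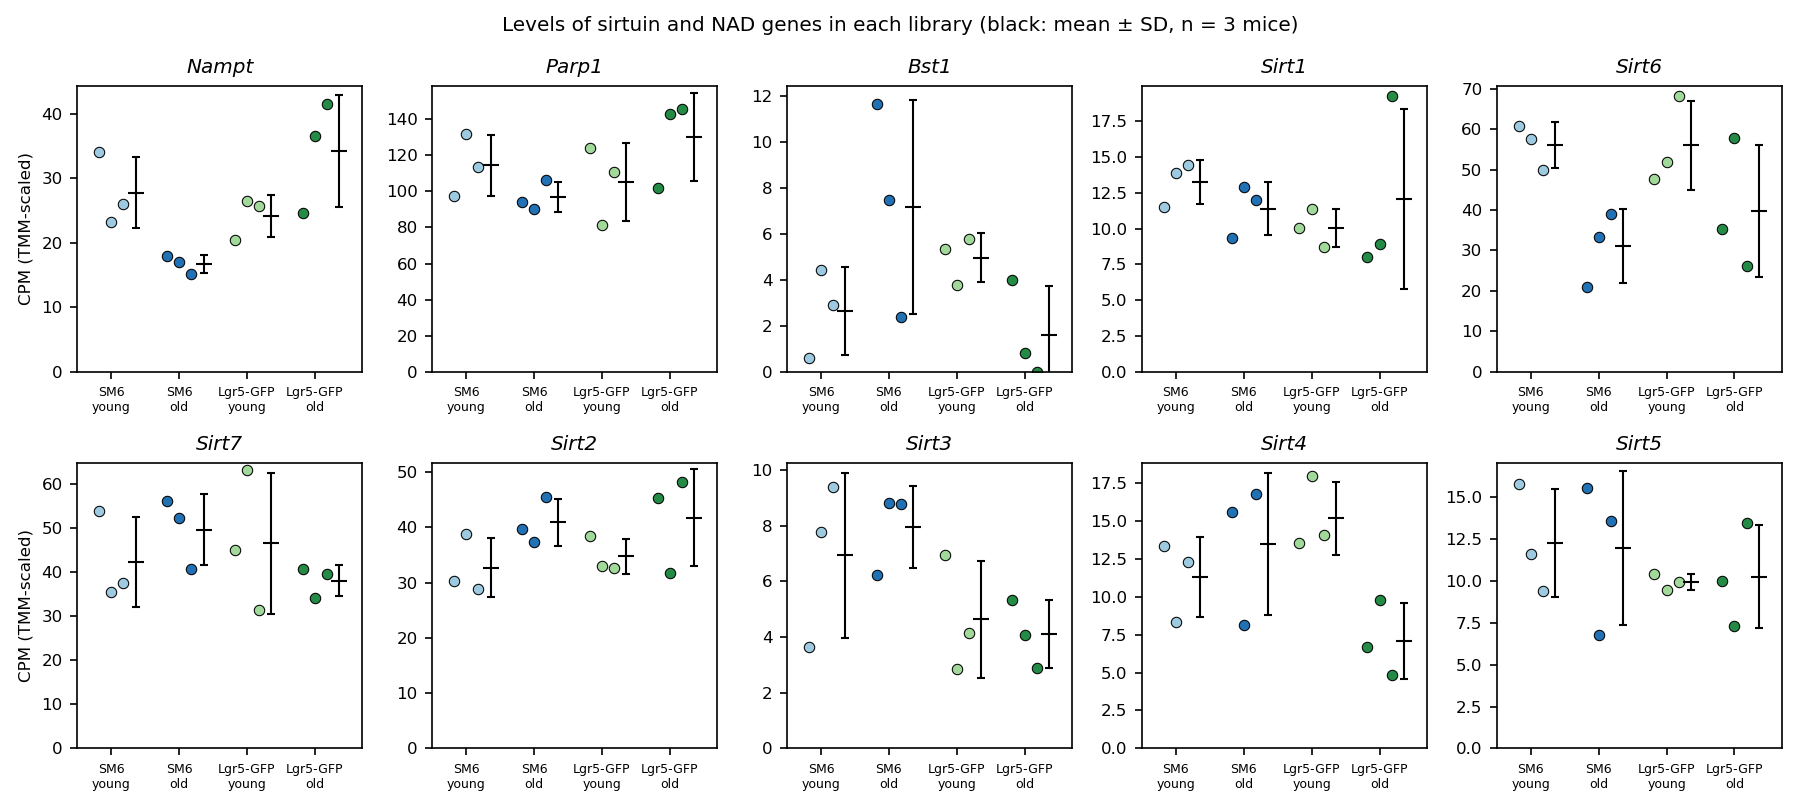
Levels of the 10 genes in each of the 12 libraries, in CPM scaled by TMM on a linear axis from 0, with 1 point per mouse and the mean ± SD of 3 mice in black (error bars are clipped at 0). The SM6 old libraries lie below all SM6 young libraries for Sirt6 and Nampt, and the Lgr5-GFP old libraries lie below all Lgr5-GFP young libraries for Sirt4.

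Among the nuclear sirtuins, Sirt6 (ENSMUSG00000034748, GRCm38 chromosome 10, 81621785 to 81627797, minus strand), a deacylase of histone H3 that takes part in DNA repair and in the restraint of glycolytic genes, came nearest to the threshold. Its level was 60.7, 57.6 and 49.9 CPM in SM6 young and 21.0, 33.3 and 39.1 CPM in SM6 old, on 27 to 104 counts per library. It was 47.6, 52.0 and 68.3 CPM in Lgr5-GFP young and 35.3, 57.7 and 26.0 CPM in Lgr5-GFP old. Young and old libraries thus lay apart in SM6, whereas in Lgr5-GFP the old replicate 2 lay within the range of the young. The mean was 56.1 ± 5.58 CPM in SM6 young against 31.2 ± 9.23 in SM6 old, a log2 fold change of -0.85 (SD, n = 3; SE 0.27, edgeR adjusted p = 0.106). In Lgr5-GFP it was 55.9 ± 10.9 against 39.7 ± 16.3 CPM, a log2 fold change of -0.49 (SD, n = 3; SE 0.26, edgeR adjusted p = 0.56). Within Lgr5-GFP this value became -0.85 when old replicate 2 was omitted, -0.28 when old replicate 3 was and -0.31 when young replicate 3 was, with no call in any of these fits. On average over both isolations the log2 fold change was -0.67 (SE 0.19, 95% interval -1.05 to -0.28), with an edgeR adjusted p of 0.0545, just outside the threshold, and an unadjusted p of 0.00149. In the SM6 old libraries the ISC markers summed to 8100 to 9315 CPM against 12900 to 15970 in SM6 young. Between these ages 2 of 10 ISC markers were called lower in SM6 (median log2 fold change -0.40), and 5 of 8 goblet cell markers (median 1.11), 4 of 10 enterocyte markers (1.09), 2 of 10 Paneth cell markers (2.10) and 1 of 8 enteroendocrine markers (0.51) were called higher. The part of these cell types in the SM6 values of Sirt6, Nampt, Foxo3, Zc3hav1 and the other genes was not tested beyond the Paneth marker covariate. The age effects of both isolations differed by 0.36 (SE 0.37), so no difference between them was found (edgeR adjusted p = 0.835).

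Single libraries and settings moved Sirt6 across the threshold. Without Lgr5-GFP old replicate 2, the old library with the highest level, the average log2 fold change was -0.85 (edgeR adjusted p = 0.00699), and without SM6 old replicate 3 it was -0.76 (adjusted p = 0.0262). Those same libraries held the highest summed level of enterocyte markers (12010 CPM) and of Paneth cell markers (273600 CPM). In the former 9851 of the 12010 CPM came from Fabp1, a fatty acid binding protein, while over all Lgr5-GFP libraries 7 of the 10 enterocyte markers had estimates below 0 with age and 3 of them were called lower (Apoa1, Apoa4 and Lct). The part of these cells in the level of Sirt6 was not tested beyond a fit with the Paneth marker share as a covariate, which gave -0.67 (edgeR adjusted p = 0.053). Limma voom called it (-0.75, adjusted p = 0.0289), as did edgeR with no filter on low counts (-0.69, adjusted p = 0.00491), whereas DESeq2 did not.

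Sirt1 (ENSMUSG00000020063, chromosome 10, 63319005 to 63381704, minus strand), a deacetylase of p53, FOXO factors and PGC-1α, was measured on 11 to 32 counts per library. Its level was 11.5, 13.9 and 14.4 CPM in SM6 young and 9.35, 12.9 and 11.98 in SM6 old, and 10.1, 11.3 and 8.69 CPM in Lgr5-GFP young and 8.00, 8.95 and 19.3 in Lgr5-GFP old. The groups overlapped at both isolations, and a single library, Lgr5-GFP old replicate 3, stood above the other 11. The log2 fold change with age was -0.21 (SE 0.37) in SM6 and 0.25 (SE 0.38) in Lgr5-GFP, and the latter turned to -0.23 without Lgr5-GFP old replicate 3. The SM6 value was -0.07 without SM6 old replicate 1. On average the 95% interval of the log2 fold change ran from -0.53 to 0.57.

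Sirt7 (ENSMUSG00000025138, chromosome 11, 120618372 to 120625240, minus strand), a nucleolar deacylase linked to ribosomal RNA synthesis, was at 54.0, 35.5 and 37.6 CPM in SM6 young and 56.1, 52.3 and 40.7 in SM6 old. In Lgr5-GFP it was at 45.1, 63.3 and 31.5 CPM in young and 40.7, 34.2 and 39.5 in old mice. The ages overlapped in both isolations, with log2 fold changes of 0.23 (SE 0.25, edgeR adjusted p = 0.775) and -0.25 (SE 0.25, edgeR adjusted p = 0.818), and the average interval was -0.37 to 0.36. Over the fits that each omit a library, the effect of Sirt7 ran from 0.11 to 0.45 in SM6 and from -0.47 to -0.01 in Lgr5-GFP. Sirt7 shares 124 exonic bases with Mafg on the same strand, and Mafg had 350 counts over all libraries against 835 for Sirt7, so reads there could have been left out or split by the counting.

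Sirt2 (ENSMUSG00000015149, chromosome 7, 28766735 to 28788661, plus strand), a deacetylase of tubulin and metabolic enzymes, was at 30.3, 38.8 and 28.9 CPM in SM6 young and 39.8, 37.3 and 45.5 in SM6 old. In Lgr5-GFP the values were 38.4, 33.1 and 32.7 CPM in young and 45.3, 31.7 and 48.2 in old mice. The old mean was above the young mean in each isolation, by log2 fold changes of 0.31 (SE 0.23) and 0.25 (SE 0.22), while the libraries overlapped in both. The Lgr5-GFP effect was 0.42 without old replicate 2 of that isolation and 0.15 without its old replicate 3. On average the log2 fold change was 0.28 (SE 0.16, 95% interval -0.05 to 0.61, edgeR adjusted p = 0.491), and it stayed between 0.23 and 0.37 when each library was left out in turn. Of the 10 genes, Sirt2 alone had an interval for the difference of the age effects that lay within a 2-fold change either way (-0.72 to 0.60).

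Of the mitochondrial sirtuins, Sirt4 (ENSMUSG00000029524, chromosome 5, 115478010 to 115484725, minus strand), a lipoamidase and deacylase that restrains pyruvate dehydrogenase and glutamate dehydrogenase, was at 13.6, 17.96 and 14.1 CPM in Lgr5-GFP young and at 6.67, 9.76 and 4.82 in Lgr5-GFP old, on 5 to 43 counts per library. In SM6 it was at 13.3, 8.31 and 12.3 CPM in young and 15.6, 8.14 and 16.8 in old mice. The ages did not overlap in Lgr5-GFP and overlapped in SM6. The log2 fold change was -1.05 (SE 0.40, 95% interval -1.87 to -0.23) in Lgr5-GFP, with an unadjusted p of 0.014 and an edgeR adjusted p of 0.336, and 0.25 (SE 0.38, adjusted p = 0.858) in SM6, the latter from 0.06 to 0.52 over the fits that each omit a library. The difference of the 2 age effects was -1.30 (SE 0.55, edgeR adjusted p = 0.456).

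Sirt3 (ENSMUSG00000025486, chromosome 7, 140863666 to 140882309, minus strand), the main mitochondrial deacetylase, had 3 to 22 counts per library. Its level was 3.64, 7.76 and 9.39 CPM in SM6 young, 6.24, 8.82 and 8.79 in SM6 old, 6.93, 2.84 and 4.14 in Lgr5-GFP young and 5.33, 4.07 and 2.89 in Lgr5-GFP old. The log2 fold changes with age, 0.21 (SE 0.50) and -0.24 (SE 0.55), were each smaller than their SE, and their sign turned when the young replicate 1 of the same isolation was left out. Sirt3 shares 418 exonic bases with Ric8a and 342 with Psmd13, both on the opposite strand, and the latter had 3745 counts against 116 for Sirt3. Whether the counting used the strand is not given in the sources used here, so reads of these genes and of Sirt3 cannot be told apart there. Sirt5 (ENSMUSG00000054021, chromosome 13, 43365496 to 43395203, plus strand), which removes succinyl and malonyl groups, was at 15.8, 11.6 and 9.39 CPM in SM6 young and 15.6, 6.79 and 13.6 in SM6 old. In Lgr5-GFP it was at 10.4, 9.45 and 9.93 CPM in young and 10.0, 7.32 and 13.5 in old mice. Its age effects were the smallest of the 10 in both isolations, -0.05 (SE 0.38) and 0.02 (SE 0.40) on the log2 scale, with an average interval of -0.58 to 0.55.

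**Figure D2:**
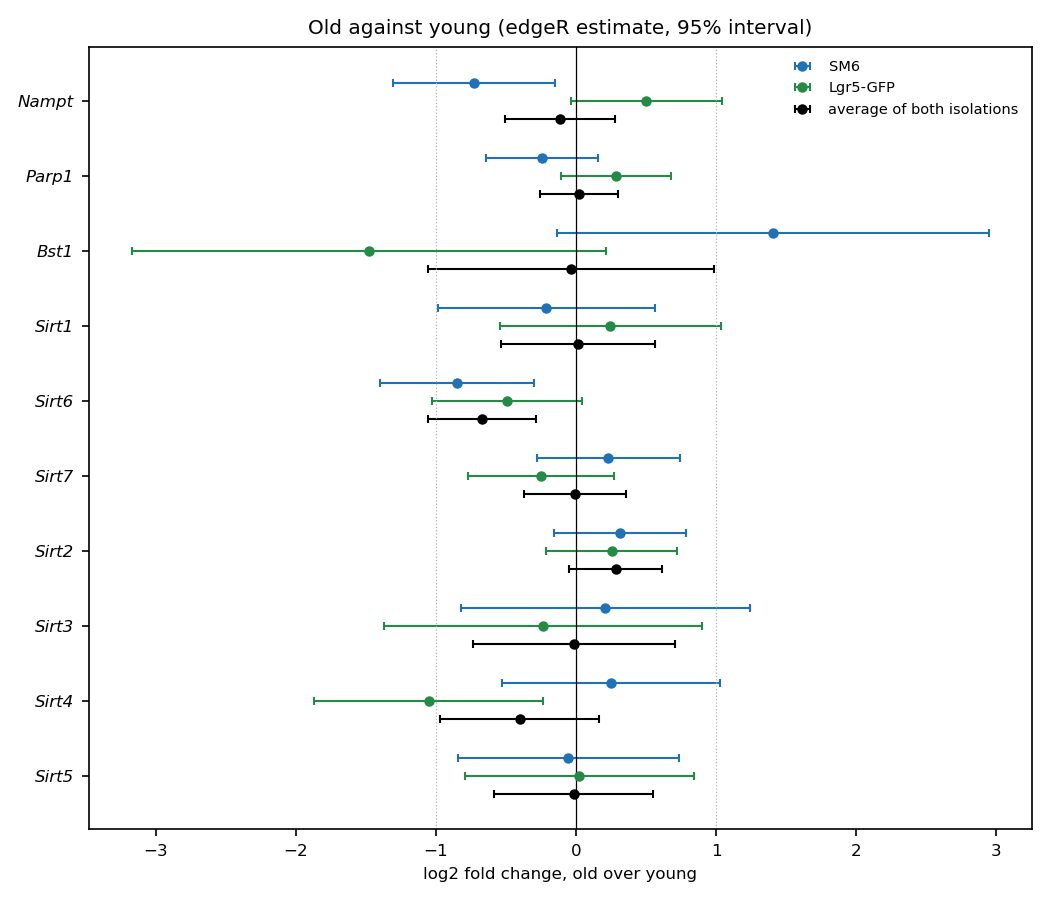
Log2 fold change of old over young for the 10 genes in SM6 (blue), in Lgr5-GFP (green) and on average over both (black), as edgeR estimates with 95% intervals; dotted lines mark a 2-fold change. The average interval of Sirt6, -1.05 to -0.28, is the only average interval here that leaves out 0, and the estimates of Nampt and Bst1 lie on opposite sides of 0 in the 2 isolations.

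Nampt (ENSMUSG00000020572, chromosome 12, 32819545 to 32853349, plus strand) was at 34.0, 23.3 and 26.0 CPM in SM6 young and at 17.9, 17.0 and 15.2 in SM6 old, on 19 to 56 counts per library. In Lgr5-GFP it was at 20.5, 26.5 and 25.7 CPM in young and at 24.7, 36.6 and 41.5 in old mice. All SM6 old libraries lay below all SM6 young libraries, and in Lgr5-GFP both other old libraries lay above all young ones while old replicate 1 lay among them. The mean was 27.8 ± 5.56 CPM in SM6 young against 16.7 ± 1.39 in SM6 old, a log2 fold change of -0.73 (SD, n = 3; SE 0.28, edgeR unadjusted p = 0.0154, adjusted p = 0.223). It was 24.2 ± 3.25 against 34.2 ± 8.65 CPM in Lgr5-GFP, a log2 fold change of 0.50 (SD, n = 3; SE 0.26, edgeR adjusted p = 0.552). The age effects of the isolations differed by 1.23 (SE 0.38, 95% interval 0.44 to 2.02), with an unadjusted p of 0.00371 and an edgeR adjusted p of 0.219. Over the fits that left out 1 library this difference ran from 1.06 to 1.43, and none of them passed the threshold. With the Paneth marker share as a covariate it was 1.28 (adjusted p = 0.575). The study's own list of genes that differ with age came from other libraries, of whole transcripts from pooled wild-type mice. That list has Nampt as higher in old, opposite to the SM6 estimate here, and Parp1 as lower.

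Parp1 (ENSMUSG00000026496, chromosome 1, 180568924 to 180601254, plus strand) had 86 to 393 counts per library, and its SE was the smallest of the 10 in every comparison. Its level was 97.7, 131.9 and 113.5 CPM in SM6 young, 94.3, 90.3 and 106.2 in SM6 old, 123.8, 81.3 and 110.5 in Lgr5-GFP young and 102.0, 143.1 and 145.6 in Lgr5-GFP old. The ages overlapped in both isolations. The log2 fold change was -0.24 (SE 0.19, edgeR adjusted p = 0.673) in SM6 and 0.28 (SE 0.19, edgeR adjusted p = 0.681) in Lgr5-GFP. The former was -0.12 without SM6 young replicate 2, and the latter was 0.15 without Lgr5-GFP young replicate 2 and 0.44 without Lgr5-GFP old replicate 1. The average interval, -0.26 to 0.30, was the narrowest of the 10. For both Nampt and Parp1 the group means ran from highest to lowest as Lgr5-GFP old, SM6 young, Lgr5-GFP young and SM6 old. Neighbouring means in this order differed by less than the larger of their SDs, except those of Nampt in Lgr5-GFP young and SM6 old. Bst1 and Sirt7 shared another order, from highest to lowest SM6 old, Lgr5-GFP young, SM6 young and Lgr5-GFP old.

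Bst1 (ENSMUSG00000029082, chromosome 5, 43818885 to 43843986, plus strand) lay near the limit of detection. Its counts were 1, 8 and 4 in SM6 young, 15, 11 and 3 in SM6 old, 17, 4 and 14 in Lgr5-GFP young and 6, 1 and 0 in Lgr5-GFP old, and the count of 0 allows up to 3 counts or 2.89 CPM in that library. The levels were 0.607, 4.43 and 2.89 CPM in SM6 young and 11.7, 7.46 and 2.397 in SM6 old. In Lgr5-GFP they were 5.36, 3.78 and 5.79 CPM in young and 4.00, 0.813 and 0 in old mice. The ages overlapped in both isolations, with estimates on opposite sides of 0. The log2 fold change was 1.41 (SE 0.75, edgeR adjusted p = 0.446) in SM6 and -1.48 (SE 0.82, edgeR adjusted p = 0.593) in Lgr5-GFP, with a difference of -2.88 (SE 1.11, 95% interval -5.17 to -0.60, edgeR adjusted p = 0.388). Without Lgr5-GFP old replicate 1, the old library with the most Bst1 there, the Lgr5-GFP effect was -3.33 (edgeR adjusted p = 0.337) and the difference -4.74 (adjusted p = 0.172), and without SM6 old replicate 1 the SM6 effect was 0.91 (adjusted p = 0.781). Of the libraries with the most Paneth cell markers, SM6 old replicate 3 (273600 CPM) had 3 counts of Bst1, or 2.397 CPM. Lgr5-GFP young replicate 1 (245200 CPM) had 17, the most counts of any library. It was also the library with the largest total (3815425 counts), so its level of Bst1 was 5.36 CPM, below that of SM6 old replicates 1 and 2. SM6 old replicate 1, with the highest level of Bst1, had 44100 CPM of Paneth markers and 9403 of enterocyte markers. With age, the estimates of all 10 Paneth cell markers were above 0 in SM6 (median log2 fold change 2.10, 2 called higher) and below 0 in Lgr5-GFP (median -2.74, 2 called lower), the same signs as those of Bst1. These signs were not particular to Paneth cells. Goblet cell markers were above 0 in SM6 for 8 of 8 and below 0 in Lgr5-GFP for 7 of 8. The same numbers were 8 of 8 and 7 of 8 for enteroendocrine markers, and 9 of 10 and 7 of 10 for enterocyte markers. The part of these other cell types was not tested. With the Paneth marker share as a covariate the log2 fold changes of Bst1 were 2.03 (adjusted p = 0.236) in SM6 and -2.57 (adjusted p = 0.48) in Lgr5-GFP, and the part of Paneth cells was not tested further. Bst1 shares 98 exonic bases with Fbxl5 on the opposite strand, which had 748 counts against 84 for Bst1.

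**Figure D3:**
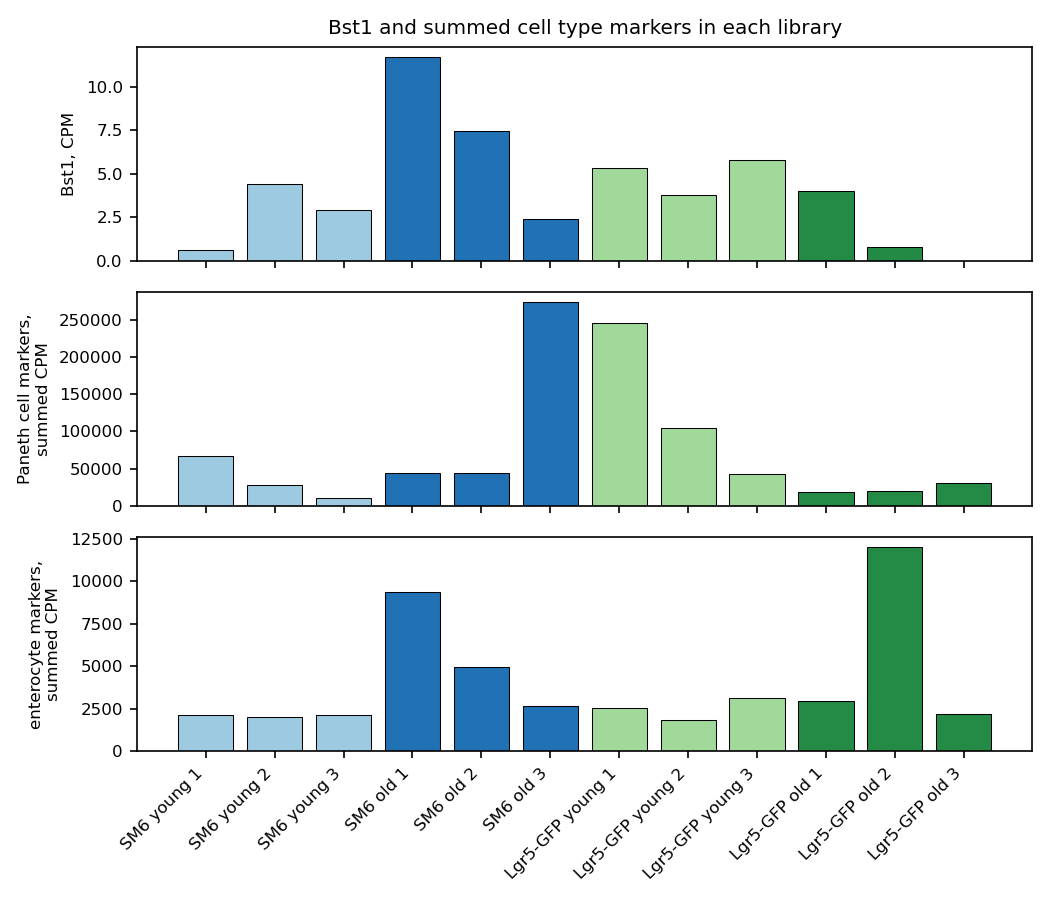
Bst1 (top, CPM), the summed level of 10 Paneth cell markers (middle, CPM) and of 10 enterocyte markers (bottom, CPM) in each library, as bars from 0 coloured by group. Bst1 was highest in SM6 old replicate 1 at 11.7 CPM, while the Paneth markers were highest in SM6 old replicate 3 at 273600 CPM. By group the Paneth markers ran from 10700 to 67510 CPM in SM6 young, 44080 to 273600 in SM6 old, 43130 to 245200 in Lgr5-GFP young and 18120 to 30870 in Lgr5-GFP old.

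Across the 10 genes, 2 had age effects of the same sign in both isolations (Sirt2 positive, Sirt6 negative) and 8 had opposite signs, a share of 20.0% with the same sign against 53.1% of all tested genes. The comparisons share no library, but several of these effects lay within 1 SE of 0, where a sign carries little. Young and old libraries lay apart for 2 of the 10 in SM6, both lower in old (9.78% of tested genes were lower in this way), and for 1 of the 10 in Lgr5-GFP, lower in old (7.95% of tested genes). None of the 10 met this in both isolations, as 0.748% of tested genes did with higher and 1.29% with lower levels in old.

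The difference of the age effects between the isolations was tested as an interaction. None of the 10 genes was called, against 0.658% of tested genes (edgeR), and 3 had an unadjusted p under 0.05 (Nampt, Sirt4 and Bst1). DESeq2 and voom called none either and each had 3 under that level. The share over all tested genes at this unadjusted level was 9.43%. Cell type markers were among the genes called lower in the interaction, with all 10 Paneth cell markers (median log2 difference -5.15), 5 of 10 enterocyte markers and 4 of 8 goblet cell markers, and their part in the differences of the 10 genes was not tested beyond the Paneth marker covariate. Beside the values already given, the differences were 0.53 (SE 0.27, edgeR adjusted p = 0.553) for Parp1 and -0.48 (SE 0.35, adjusted p = 0.728) for Sirt7, which was -0.24 without Lgr5-GFP young replicate 2, and those of Sirt1, Sirt2, Sirt3, Sirt5 and Sirt6 were within 1 SE of 0. Only the interval of Sirt2 lay within a 2-fold change, so the data leave room for differences of that size for the other 9.

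Lgr5-GFP was also compared with SM6 at each age. At 2 months, none of the 10 was called and none had an unadjusted p under 0.05 with edgeR, DESeq2 or voom, against 0.0898% of tested genes called and 7.47% under the unadjusted level (edgeR). Sirt1 was lower in all Lgr5-GFP young libraries than in any SM6 young library, 8.69 to 11.3 against 11.5 to 14.4 CPM, and Sirt4 was higher, 13.6 to 17.96 against 8.31 to 13.3 CPM. Libraries lay apart in this way for 13.7% of tested genes. The log2 fold changes were -0.42 (SE 0.36, edgeR adjusted p = 0.838) for Sirt1, 0.40 (SE 0.36, adjusted p = 0.847) for Sirt4, which was 0.21 without SM6 young replicate 2, and 0.92 (SE 0.74, adjusted p = 0.818) for Bst1, which was 0.46 without SM6 young replicate 1 and 1.56 without SM6 young replicate 2. The other 7 lay between -0.47 and 0.10, each within 1 SE of 0, and the interval was within a 2-fold change for Sirt2, Sirt6, Sirt7, Nampt and Parp1 and reached past it for the other 5.

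At 22 months, the estimates lay farther apart. Again none of the 10 was called with edgeR, DESeq2 or voom (0.718% of tested genes were with edgeR), and 4 had an unadjusted p under 0.05 with edgeR (Nampt, Bst1, Sirt4 and Parp1) and 3 each with DESeq2 and voom, against 9.4% of tested genes with edgeR. Nampt was at 24.7 to 41.5 CPM in Lgr5-GFP old and 15.2 to 17.9 CPM in SM6 old, with no overlap, a log2 fold change of 1.02 (SE 0.28, 95% interval 0.44 to 1.60, edgeR unadjusted p = 0.0014, adjusted p = 0.11). Parp1 was also higher in the mean, by 0.42 (SE 0.19, edgeR adjusted p = 0.503), with overlapping libraries. Bst1 was lower by a log2 fold change of -1.97 (SE 0.82, edgeR adjusted p = 0.441) and Sirt4 by -0.90 (SE 0.41, edgeR adjusted p = 0.497), both with overlap. The value of Bst1 was -3.82 without Lgr5-GFP old replicate 1 (edgeR adjusted p = 0.215). Sirt3 and Sirt7 were lower in all Lgr5-GFP old libraries than in any SM6 old library, with log2 fold changes of -0.91 (SE 0.55, edgeR adjusted p = 0.653) and -0.38 (SE 0.25, edgeR adjusted p = 0.691), and libraries lay apart for 13.5% of tested genes. Sirt6 stood at 0.36 (SE 0.28, edgeR adjusted p = 0.756), which was -0.004 without Lgr5-GFP old replicate 2, and Sirt1, Sirt2 and Sirt5 were within 1 SE of 0. At this age the goblet cell markers summed to 3166 to 5521 CPM in Lgr5-GFP old and 17370 to 18310 in SM6 old, and 7 of the 8 were called lower in Lgr5-GFP. Also called lower there were 5 of 10 enterocyte, 5 of 8 enteroendocrine and 1 of 10 Paneth cell markers, while 1 of 10 ISC markers was called higher, and the part of these cell types in the differences was not tested beyond the Paneth marker covariate, under which none of the 10 was called and 3 had an unadjusted p under 0.05.

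**Figure D4:**
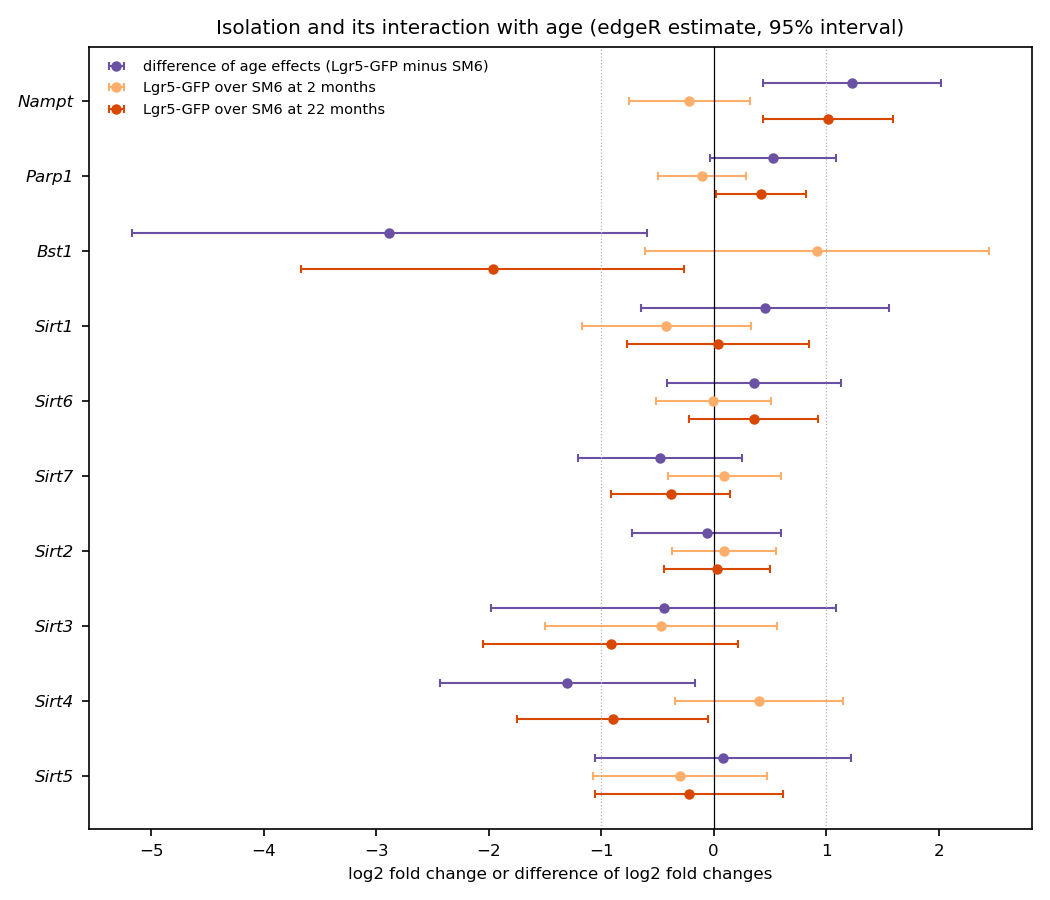
The difference of the age effects between the isolations (purple) and the log2 fold change of Lgr5-GFP over SM6 at 2 months (light orange) and at 22 months (dark orange), as edgeR estimates with 95% intervals and dotted lines at a 2-fold change. At 22 months the interval lies above 0 for Nampt (0.44 to 1.60) and Parp1 (0.02 to 0.82) and below 0 for Bst1 and Sirt4, and at 2 months every interval includes 0.

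The rest of the pathway was read from 7 lists, in which 4 genes that are not among the 10 were called with age. Of all tested genes, 0.643% were called higher and 1.77% lower in SM6, 0.187% and 0.284% in Lgr5-GFP, and 0.598% and 2.06% on average. Among sirtuin regulators and nuclear targets (12 listed, 11 tested), SM6 and the average each had 1 gene called lower and 0 higher, and Lgr5-GFP had 0 calls. That gene was Foxo3, a transcription factor of stress resistance that Sirt1 deacetylates. Its level was 98.9, 159.6 and 138.8 CPM in SM6 young and 34.3, 50.2 and 62.3 in SM6 old, and 110.6, 80.3 and 99.3 in Lgr5-GFP young and 56.0, 125.2 and 54.0 in Lgr5-GFP old. Foxo3 fell in SM6, with libraries apart (log2 fold change -1.44, SE 0.28, edgeR adjusted p = 0.0037), and on average (-0.88, SE 0.19, edgeR adjusted p = 0.00964). In Lgr5-GFP the log2 fold change was -0.32 (SE 0.27, edgeR adjusted p = 0.773), and the difference of the age effects was 1.12 (SE 0.38, edgeR adjusted p = 0.31). Without Lgr5-GFP old replicate 2, the highest of the old libraries, the Lgr5-GFP effect of Foxo3 was -0.83 (edgeR adjusted p = 0.175) and the difference 0.61 (adjusted p = 0.705), and over all such fits the Lgr5-GFP effect ran from -0.83 to -0.11. The calls of Foxo3 in SM6 and on average held whichever library was omitted (12 fits), in places only just, with edgeR adjusted p up to 0.0492 in SM6 and 0.0493 on average.

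In the PARP family (16 listed, 15 tested), SM6 and the average each had 1 gene called higher and 1 lower, and Lgr5-GFP had 0 calls. Zc3hav1, an antiviral protein of this family that has no catalytic activity, was at 157.8, 185.1 and 196.6 CPM in SM6 young and 93.5, 90.3 and 124.6 in SM6 old, and at 165.1, 166.4 and 162.3 in Lgr5-GFP young and 88.6, 130.9 and 61.7 in Lgr5-GFP old. The libraries of both ages lay apart in each isolation, with log2 fold changes of -0.81 in SM6 (SE 0.21, edgeR adjusted p = 0.0343), -0.80 in Lgr5-GFP (SE 0.21, adjusted p = 0.088) and -0.81 on average (SE 0.15, adjusted p = 0.00221). The call of Zc3hav1 in SM6 was lost upon omission of any of 4 libraries (SM6 young replicates 2 and 3 and SM6 old replicates 1 and 2, adjusted p up to 0.181) and with the Paneth marker share as a covariate (log2 fold change -0.81, edgeR adjusted p = 0.0824), and the call on average held in all of them. Its SM6 log2 fold change ran from -0.96 to -0.72 over the fits that each omit a library. Parp3, which acts at DNA double-strand breaks, had 0, 1 and 1 counts in SM6 young and 6, 9 and 8 in SM6 old, and 3, 3 and 11 in Lgr5-GFP young and 6, 6 and 10 in Lgr5-GFP old. The summed counts of Parp3 in SM6 gave a ratio of old to young of 13.9 (exact 95% interval 3.43 to 121.0, counting error only). It was called in SM6 (log2 fold change 3.56, edgeR adjusted p = 0.0402) and on average (log2 fold change 2.35, SE 0.59, adjusted p = 0.0266). In Lgr5-GFP the log2 fold change of Parp3 was 1.14 (edgeR adjusted p = 0.642), and the difference of the age effects was -2.42 (adjusted p = 0.535). Over the fits that each omit a library, its effect ran from 3.04 to 3.99 in SM6 and from 0.63 to 1.88 in Lgr5-GFP. The call in SM6 was lost without any 1 of the 6 SM6 libraries (adjusted p up to 0.137) with DESeq2 (adjusted p = 0.068) and in a fit of the SM6 libraries alone (edgeR adjusted p = 0.0556), and the call on average was lost upon omission of any of 5 libraries (SM6 young replicates 1 and 2, SM6 old replicate 2, Lgr5-GFP young replicate 1 and Lgr5-GFP old replicate 3, adjusted p up to 0.0923). Parp2, the nearest relative of Parp1, was at 95.01 to 146.1 CPM in all libraries and was not called.

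In the list of mitochondrial sirtuin targets (13 listed, 13 tested), the genes called higher numbered 0 in either isolation and 1 for the average, with 0 called lower. For SM6, Lgr5-GFP and the average, the median log2 fold change of this list was 0.09, 0.14 and 0.14, beside -0.01, -0.03 and -0.03 over all tested genes. The gene called was Acadl, a fatty acid oxidation enzyme. It was at 81.9, 79.4 and 66.2 CPM in Lgr5-GFP young and 99.3, 323.6 and 103.2 in Lgr5-GFP old, and at 93.5, 81.5 and 73.0 in SM6 young and 170.7, 114.7 and 83.1 in SM6 old. Old and young libraries of Acadl lay apart in Lgr5-GFP and overlapped in SM6. Acadl rose on average (log2 fold change 0.89, SE 0.23, edgeR adjusted p = 0.0314), with log2 fold changes of 0.57 in SM6 (SE 0.32, adjusted p = 0.491) and 1.21 in Lgr5-GFP (SE 0.32, adjusted p = 0.1). Within each isolation the highest old library of Acadl, SM6 old replicate 1 and Lgr5-GFP old replicate 2, was also the one with the most enterocyte markers, 9403 and 12010 CPM against 1857 to 4952 in the other 10, and the part of enterocytes was not tested. The sum of Lgr5-GFP old replicate 2 was mostly Fabp1, as given above. Without SM6 old replicate 1 the SM6 effect of Acadl was 0.28, and without Lgr5-GFP old replicate 2 its Lgr5-GFP effect was 0.42 (edgeR adjusted p = 0.86 and 0.647). Without the latter library the average effect of Acadl was 0.49 (edgeR adjusted p = 0.117). Acadl lost its call upon omission of any of 7 libraries (SM6 young replicates 2 and 3, SM6 old replicates 1 and 2, Lgr5-GFP young replicates 2 and 3 and Lgr5-GFP old replicate 2) and with DESeq2 (adjusted p = 0.139) and voom (adjusted p = 0.0716).

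**Figure D5:**
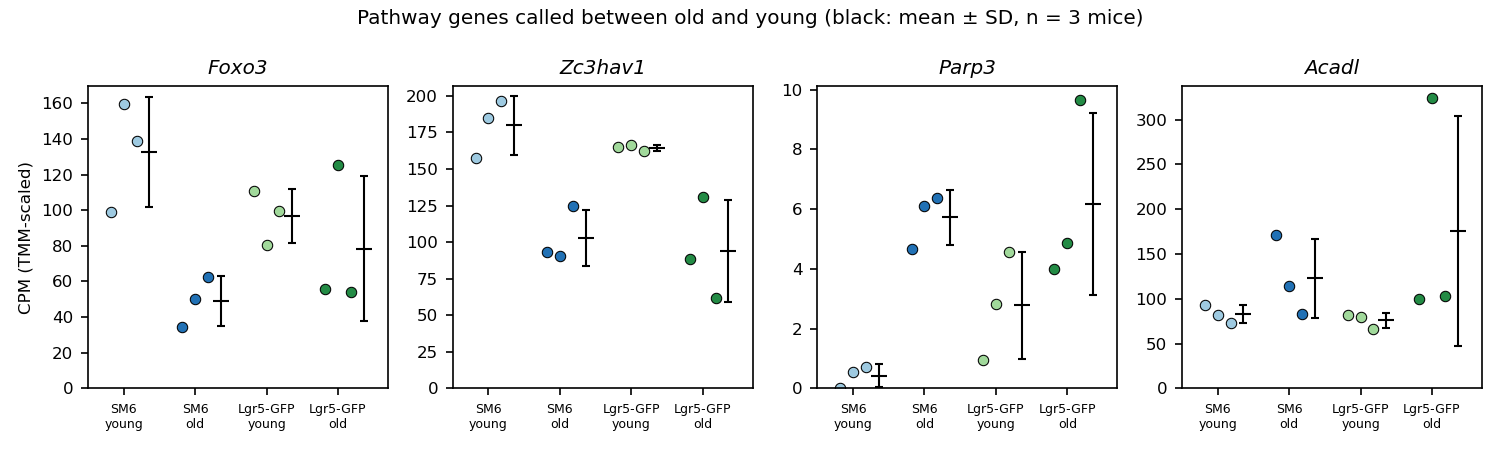
Levels of the 4 pathway genes called between old and young, in CPM scaled by TMM on linear axes from 0, with 1 point per mouse and the mean ± SD of 3 mice in black (clipped at 0). Zc3hav1 is lower in all old libraries of each isolation, and the highest point of Acadl (323.6 CPM) is Lgr5-GFP old replicate 2.

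In the list of NAD synthesis (18 listed, 10 tested, Nampt included), 0 genes were called in any comparison. The enzymes of the route from nicotinic acid were measured, with Naprt, its first enzyme, at 41.5 to 70.9 CPM. Of the route from tryptophan, Kmo and Kynu were at 0 in all 12 libraries, and Haao, Qprt, Tdo2, Ido2 and Afmid did not pass the filter on low counts. Ido1, an enzyme of the first step of this route, passed it through a single library, with 8, 1 and 0 counts in Lgr5-GFP young and 0 in every other library. In the list of NAD glycohydrolases and nicotinamide clearance (7 listed, 4 tested, Bst1 included), none was called. Cd38, the relative of Bst1 that also makes cyclic ADP-ribose, was at 93.5, 85.4 and 94.7 CPM in SM6 young and 63.1, 61.8 and 83.1 in SM6 old, with libraries apart (log2 fold change -0.40, SE 0.19, edgeR adjusted p = 0.364). In Lgr5-GFP, Cd38 was at 79.1, 81.3 and 88.6 CPM in young and 83.98, 94.3 and 61.7 in old mice, which overlapped (-0.05, SE 0.19, edgeR adjusted p = 0.972, from -0.18 to 0.10 over the fits that each omit a library). Sarm1, Nnmt and Aox1 were at 0 in every library. None was called in the lists of NAD transport (5 listed, 4 tested) and ADP-ribose removal (6 listed, 6 tested) either, and in the interaction and both isolation comparisons 0 genes of all 7 lists were called.

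Genes with the most similar pattern were read from the Pearson correlation of log2(CPM + 1) over the 12 libraries, which share their depth and cell makeup across genes, so that these values are a description. Sirt6 was most like Ccdc85c (r = 0.946), Nipsnap2 (0.941) and Dnaja3 (0.935), and 178 genes had an r above 0.8 with it. For Nampt these were Zfp410 (0.898), Slc5a9 (0.89) and Uri1 (0.88), and 22 genes passed 0.8. For Parp1 these were Rbm12b1 (0.956), Xpo4 (0.916) and Coq8b (0.899), of which the first and last had a mean under 3 CPM. For Bst1 they were Slc2a2 (0.928), Trmt12 (0.923) and 1810065E05Rik (0.918). Sirt2 was most like Hdac8 (0.906), Chrna1os (0.85) and Hoga1 (0.832), and Sirt7 was most like Nipa2 (0.897), Slc22a5 (0.884) and Hist1h2be (0.88).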

How the data were processed

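The authors aligned the reads of 12 3′ RNA libraries to the mouse genome (GRCm38) with STAR 2.4.2a and counted reads over the exons of each gene with featureCounts. What they deposited is this table of raw counts, and 0 of its value columns were left unused. The kit added molecular identifiers, but whether they were collapsed, and whether counting used the strand, is not given in the sources used here, so limits from counts cover counting error only. The study's own filter was applied, which keeps a gene with more than 5 reads and 1 CPM or more in any library. Counts were fitted with edgeR 4.0.16 in R 4.3.3 (TMM scaling, 1 mean per group, quasi-likelihood test, two-sided, Benjamini-Hochberg over 13368 genes), which gave a common dispersion of 0.0434. SE is the log2 fold change divided by the root of its F statistic, and 95% intervals use the degrees of freedom of the fit. All pairs of libraries within a group differed beyond sampling noise. Alternatives were DESeq2 1.42.0, limma 3.58.1 (voom with sample quality weights), library totals without TMM, other filters, fits on the groups compared, a replicate block, a Paneth marker covariate and the omission of each library. Their use on the pathway lists was chosen after the data were seen. The edgeR, DESeq2 and voom fits with 1 mean per group were also run on simulated counts with changes set in SM6 old. The other alternatives were not run on simulated counts. The 10 genes and the gene lists were chosen with earlier results of these data known. In every comparison the 10 genes are named, and of the pathway lists the genes called (at most 6 per list), while other pathway genes were named after their values were seen. A gene removed from these lists is not reported here, and their counts leave it out. Similar patterns list the top 3 genes for Nampt, Parp1, Bst1 and sirtuins with a mean of at least 20 CPM. Positions come from GENCODE vM21 and promoters from RefSeq, both on GRCm38. Figures were drawn with matplotlib 3.10.9.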

Additional observations from a re-analysis of the deposited data

How the results depend on the processing

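Sirt6 alone moved in or out of the called genes. In SM6, 1 of the 10 genes, Sirt6, was called under unscaled library totals and with no filter on low counts, and on average 1 was called (again Sirt6) with voom, with no filter and with the replicate block, while leaving out 1 library gave 0 to 1. In the replicate block fit its average log2 fold change was -0.69 (edgeR adjusted p = 0.0449). The replicate numbers gave no sign of pairing the mice: 0 of 18 same-numbered pairs had a correlation of their deviations over 0.1 (-0.07 to 0.05), 4 of 12 libraries correlated best with their own number, and the block changed no other call of the 10. A pairing that touched few genes could be missed, as the correlation runs over all tested genes. Library totals without TMM shifted the median log2 fold change of all genes to -0.16 in SM6 and 0.16 in Lgr5-GFP.

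Of 38 values of single genes (age effects within an isolation, and elsewhere effects larger than their SE), followed under up to 20 alternatives, 736 of 752 kept their direction and side of the threshold, 7 (all Sirt6) passed it only under an alternative, and 9 changed sign. Without a filter, Sirt5 in Lgr5-GFP was -0.001. Over the fits that each omit a library, age effects ran from -0.099 to 0.466 for Sirt3 and -0.276 to 0.241 for Sirt5 in SM6, and from -0.485 to 0.198 for Sirt3, -0.194 to 0.212 for Sirt5 and -0.226 to 0.489 for Sirt1 in Lgr5-GFP, and Sirt6 at 22 months ran from -0.004 to 0.566. The causes were not tested.

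Of the pathway lists, 3 genes were called in SM6 (1 to 3 without 1 library) and 4 on average (2 to 5). In Lgr5-GFP 0 were called (0 to 1 without 1 library), with 1 under unscaled totals and 3 when unfiltered. The interaction had 0, with 1 under unscaled totals and 1 when unfiltered. Over all genes, the count called ran from 146 to 603 in SM6 (323 as reported), 26 to 274 in Lgr5-GFP (63), 229 to 590 on average (355), 31 to 224 for the interaction (88), 6 to 125 at 2 months (12) and 40 to 228 at 22 months (96), each highest without a filter. Sirt1, Sirt3, Sirt4, Sirt5 and Bst1 rest on 43 or fewer counts per library. Intervals of the age effect reached past a 2-fold change for Sirt3, Sirt4, Sirt6, Nampt and Bst1 in both isolations and for Sirt1 in Lgr5-GFP.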
